A study of Mus musculus with 8 samples.

Results

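The genes described here are 37 microglia genes of the mouse, homeostatic and activation-linked, given as a list of symbols and found in a deposited table of 56691 genes from cerebellar tissue. Gene identifiers were matched to symbols without using any measured value, all 37 symbols were found, and 36 passed the filter on low counts that left 22423 genes for testing. The remaining member, *Cst7*, had at most 0.122 CPM (the share of a gene in a library, scaled to 1000000 counts) in any library. Bulk RNA sequencing was performed on the cerebellum of 4 *Atm*-WT mice (labelled Control, genotype ATM +/+) and 4 *Atm*-KO mice (genotype ATM -/-) that lack ATM (ataxia-telangiectasia mutated), the DNA damage kinase lost in ataxia-telangiectasia, with a library for each mouse. The mice came from crosses of heterozygotes of strain B6;129S4-Atmtm1Bal/J, which carries a germline mutation, so that microglia and all other cells of the *Atm*-KO mice share it. Wild-type littermates served as controls, and the mice were 6 months old. The mice are called by the labels' own names, which are 2M, 7M, 13M and 32M for *Atm*-WT and 1M, 7F, 11M and 12M for *Atm*-KO. The labels mark 1 *Atm*-KO mouse with F and the other 7 mice of the study with M. Without 7F, 33 of the members tested were lower in *Atm*-KO, against 61.4% of protein-coding genes in that fit, and their median log2 fold change was -0.44.

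Microglia are the resident macrophages of the brain. They depend on signalling through the receptor CSF1R, whose ligands CSF1 and IL34 are made by neurons and glia, and in healthy tissue they survey their surroundings with purinergic and chemokine receptors such as P2RY12 and CX3CR1. In ageing, demyelination and neurodegeneration, microglia can lower these homeostatic genes and raise a set that includes *Clec7a*, *Itgax*, *Cst7*, *Lpl* and *Spp1*, a switch that depends in part on the lipid receptor TREM2 and its adaptor TYROBP.

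Most of the 36 members tested had a lower level in *Atm*-KO cerebellum than in that of *Atm*-WT mice, and none passed an adjusted p of 0.05 by edgeR's quasi-likelihood test, with p-values adjusted after Benjamini and Hochberg over the whole table. By the sign of the fitted fold change, 33 members were lower and 3 higher, against 53.1% of all genes tested and 63.8% of protein-coding genes that were lower. The median log2 fold change of the members was -0.40 and that of all genes tested was -0.02. At an unadjusted p under 0.05 there were 17 lower members and 0 higher members, where 8.48% of all genes tested were lower and 11.7% higher. All members are protein-coding, and among protein-coding genes alone the lean was the other way, with 11.7% lower and 7.0% higher at that threshold. That lean came with scaling on all genes. With scaling on protein-coding genes alone, 7.41% of them were lower and 9.42% higher at that threshold, and 54.2% were lower by sign. Of the members, 31 were then lower by sign, 17 of them at that threshold. Shares over protein-coding genes printed below come from the scaling on all genes unless another fit is named. In 13 members the highest *Atm*-KO library lay below the lowest *Atm*-WT library, a pattern that 5.12% of all genes tested and 6.98% of protein-coding genes showed. An adjusted p under 0.1 was reached by 4 members, all lower (*Ctss*, *Mpeg1*, *C1qb* and *Cd74*), and by 0.647% of all genes tested and 0.914% of protein-coding genes as lower genes. In the same fit 4 of all genes (0.0178%) had an adjusted p under 0.05. The Wald test of DESeq2 gave 11 members an adjusted p under 0.05, all lower, where 2.44% of all genes with a DESeq2 adjusted p and 3.29% of the protein-coding ones were called and lower. These 11 were *Ctss*, *Mpeg1*, *C1qb*, *Cd74*, *Selplg*, *Tmem119*, *Csf1r*, *C1qa*, *Laptm5*, *Fcgr3* and *Cd14*, with DESeq2 adjusted p-values from 0.00105 (*Ctss*) to 0.0338 (*Cd14*). Adjusted p-values printed below for single genes are those of edgeR unless DESeq2 is named. The study names both DESeq2 and limma for its comparisons, and limma voom gave no member an adjusted p under 0.05 and 17 an unadjusted p under 0.05, all lower, against 11.3% of protein-coding genes. In bulk tissue, fewer microglia and less RNA of these genes per microglial cell cannot be told apart.

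**Figure D1:**
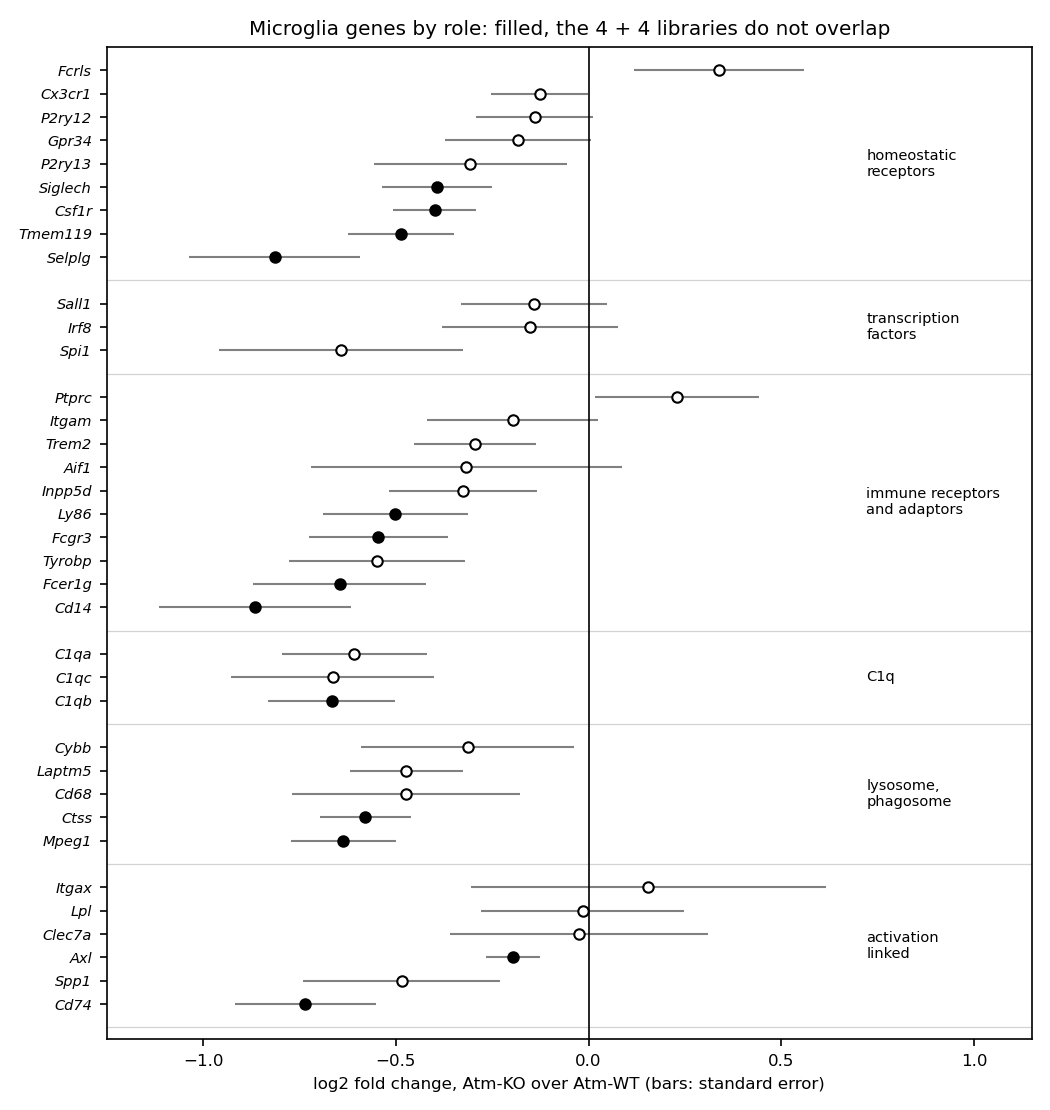
Fitted log2 fold change of each of the 36 members tested, *Atm*-KO over *Atm*-WT, on the x axis, with bars for the standard error and members grouped by role. Of the 36 points, 33 lie left of 0, and the 13 filled points mark members whose 4 *Atm*-KO libraries were all below the 4 *Atm*-WT libraries.

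The libraries held from 65967130 to 88030300 counts, and the totals of the genotypes were 81804610 and 74834207 on average (p = 0.229 by an exact permutation test, two-sided, with 4 libraries on each side). *Atm* itself was at 59.0 to 80.0 CPM in libraries of *Atm*-WT mice and at 41.1 to 51.1 CPM in those of *Atm*-KO mice (log2 fold change -0.66, adjusted p = 0.0775), and counts per gene do not show which of its exons the remaining reads cover. Granule cell markers of the cerebellum summed to 4374 to 5498 CPM in every library. Library 32M was the highest of all 8 for 18 of the 36 members, and library 12M the lowest of all 8 for 21. Without both of these libraries, a choice made after the data were seen, 26 members were lower and 10 higher, the median was -0.30, and 11 members were lower and 1 higher at an unadjusted p under 0.05. In that fit 59.2% of protein-coding genes were lower by sign, and 8.37% were lower and 5.01% higher at that p (6.05% and 7.34% of all genes tested). With library sizes unscaled, 31 members were lower and 5 higher, against 53.0% of protein-coding genes lower by sign, and genes at an unadjusted p under 0.05 split into 1046 lower and 3266 higher, compared with 1902 and 2622 after TMM scaling. RNAs that stay in the nucleus were higher in *Atm*-KO libraries, and their values are given after those of the members.

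Sequences are shown for 4 members, chosen because *Ctss*, *Mpeg1* and *C1qb* had the smallest p-values of the list and *C1qc* lies beside *C1qb*. The transcription factor PU.1, encoded by the member *Spi1*, drives the macrophage programme and is known to bind sites around a purine-rich GAGGAA core. The 250 bases upstream of RefSeq transcription starts, on assembly GRCm38.p6 (an older build than the GRCm39 of the counts), were available for 27 of the 37 members. The members without such a sequence were *Gpr34*, *Tmem119*, *Selplg*, *Csf1r*, *Spi1*, *Tyrobp*, *Cd14*, *C1qa*, *Lpl* and *Cd74*. GAGGAA was present on either strand in 16 of the 27 members (59.3%) and in 25.9% of 27025 genes, counting a gene with several starts when any of them held it. GGAAGT, which overlaps the same core, was present in 12 of 27 members (44.4%) and 22.2% of genes, and the joined GAGGAAGT in 3 members (11.1%) and 2.79% of genes. These matches describe the letters only. Each sequence below is written 5′ to 3′ on the strand of its gene and ends at the base before the start, and capitals mark GAGGAA or, where the match lies on the other strand, TTCCTC.
*Ctss* (chr3:95526536-95526785, plus strand): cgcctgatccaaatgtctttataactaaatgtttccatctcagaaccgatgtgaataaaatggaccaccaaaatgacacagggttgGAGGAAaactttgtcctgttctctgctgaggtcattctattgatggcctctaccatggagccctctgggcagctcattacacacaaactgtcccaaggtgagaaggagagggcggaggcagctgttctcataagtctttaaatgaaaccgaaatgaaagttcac
*C1qb* (chr4:136886201-136886450, minus strand): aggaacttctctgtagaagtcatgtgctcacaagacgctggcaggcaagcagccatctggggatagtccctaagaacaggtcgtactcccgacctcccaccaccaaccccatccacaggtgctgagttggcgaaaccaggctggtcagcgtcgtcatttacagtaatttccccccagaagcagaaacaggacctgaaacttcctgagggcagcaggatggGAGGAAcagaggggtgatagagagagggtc
*C1qc* (chr4:136892915-136893164, minus strand): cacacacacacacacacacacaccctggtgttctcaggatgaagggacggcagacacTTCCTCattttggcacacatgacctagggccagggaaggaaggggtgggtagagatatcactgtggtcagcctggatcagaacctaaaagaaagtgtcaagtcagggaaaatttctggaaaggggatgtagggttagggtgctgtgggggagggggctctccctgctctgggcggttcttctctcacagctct
*Mpeg1* (chr19:12460520-12460769, plus strand): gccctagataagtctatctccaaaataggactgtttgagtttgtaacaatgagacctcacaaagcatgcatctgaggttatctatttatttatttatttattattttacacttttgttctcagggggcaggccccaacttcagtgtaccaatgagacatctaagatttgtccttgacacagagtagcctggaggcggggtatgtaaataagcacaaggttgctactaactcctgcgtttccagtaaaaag
The match began 164 bases before the start in *Ctss*, 30 bases before it in *C1qb* and 193 bases before it in *C1qc*, where it lay on the opposite strand, and the window of *Mpeg1* held none.

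Values per library are given in CPM computed with TMM-scaled library sizes, in the order 2M, 7M, 13M, 32M for *Atm*-WT and 1M, 7F, 11M, 12M for *Atm*-KO. The homeostatic receptors comprised 9 members, of which 8 were lower, 4 had an unadjusted p under 0.05 and the same number showed no overlap between genotypes, all lower. Over all protein-coding genes 63.8% were lower by sign, 11.7% lower at that p and 6.98% lower without overlap, and these shares serve for each of the groups of members that follow. Their median log2 fold change was -0.31. *Csf1r*, the receptor on which microglia rely for survival, measured 39.5, 45.3, 34.4 and 43.6 CPM in the *Atm*-WT and 30.6, 34.2, 33.0 and 25.5 CPM in the *Atm*-KO mice. Every *Atm*-KO library was below every *Atm*-WT library, although the lowest *Atm*-WT value, in 13M, and the highest *Atm*-KO value, in 7F, nearly met (log2 fold change -0.40 ± 0.11 s.e., adjusted p = 0.110). *Csf1r* shares 1461 bases of exon with *Hmgxb3*, which is read from the other strand. Whether the counting used strand is not given in the sources used here, so reads there may belong to either gene. *Cx3cr1*, *P2ry12*, *Sall1*, *Aif1* and *Cybb* share 78 to 703 bases with genes of the other strand in the same way.

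*Tmem119*, a transmembrane protein used to tell microglia from other macrophages, was at 7.34, 7.54, 7.65 and 9.004 CPM in the *Atm*-WT and 4.92, 6.08, 6.53 and 4.97 CPM in the *Atm*-KO cerebellum. The genotypes did not overlap, and the *Atm*-KO libraries 1M and 12M were the lowest of the 8 (log2 fold change -0.49 ± 0.14 s.e., adjusted p = 0.116). *Siglech*, a sialic acid-binding lectin of microglia, was at 4.02, 4.92, 4.28 and 5.06 CPM and 3.64, 3.45, 3.58 and 3.26 CPM, respectively, again without overlap (log2 fold change -0.39 ± 0.14 s.e., adjusted p = 0.167). For *Selplg*, which encodes the P-selectin ligand PSGL-1, the values were 5.30, 4.54, 3.26 and 6.02 CPM in the *Atm*-WT and 2.87, 3.20, 2.90 and 1.89 CPM in the *Atm*-KO libraries. This was the largest difference among the homeostatic receptors (log2 fold change -0.81 ± 0.22 s.e., adjusted p = 0.111), with 13M and 7F close to each other at the border between the genotypes.

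Of the defining receptors, *Cx3cr1* and *P2ry12* did not separate the genotypes, unlike *Tmem119* and *Csf1r*. *Cx3cr1*, the receptor for the neuronal chemokine fractalkine, was at 19.1, 19.7, 15.1 and 23.2 CPM in the *Atm*-WT and 16.6, 18.0, 19.9 and 16.1 CPM in the *Atm*-KO mice. Its lowest value was in the *Atm*-WT library 13M and the genotypes overlapped (log2 fold change -0.13 ± 0.13 s.e., adjusted p = 0.603). *P2ry12*, which senses nucleotides released from damaged cells, was at 9.36, 9.81, 8.42 and 12.8 CPM and 8.83, 9.81, 10.5 and 7.48 CPM, with 3 of the 4 *Atm*-KO values inside the *Atm*-WT range (log2 fold change -0.14 ± 0.15 s.e., adjusted p = 0.640). Single libraries moved both values. Without 32M the log2 fold change was -0.027 for *Cx3cr1* and -0.0052 for *P2ry12*, without 13M it was -0.21 for *Cx3cr1*, and without 12M it was -0.055 for *P2ry12*. Without 32M and 12M together both turned to a small positive value (0.016 and 0.082).

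Ratios within a library do not depend on how libraries are scaled, and they differed between members. The log2 ratio of *Tmem119* to *Cx3cr1* was -1.38, -1.38, -0.98 and -1.36 in the *Atm*-WT and -1.75, -1.56, -1.61 and -1.70 in the *Atm*-KO libraries, which do not overlap. For *Ctss* over *Cx3cr1* the mean log2 ratio was 0.88 ± 0.09 (SD, n = 4) in the *Atm*-WT and 0.42 ± 0.13 in the *Atm*-KO mice, also without overlap. The corresponding means were -0.15 ± 0.10 and -0.65 ± 0.18 for *Mpeg1* over *Cx3cr1*, and -0.62 ± 0.08 and -1.18 ± 0.25 for *C1qb* over *Cx3cr1*, and neither ratio overlapped between genotypes. *P2ry12* over *Cx3cr1* stayed close, at -0.93 ± 0.10 and -0.95 ± 0.11, and *Csf1r* over *Cx3cr1*, at 1.09 ± 0.14 and 0.80 ± 0.12, overlapped. These pairs were chosen after their values were seen, and no test is attached to them.

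Of the other homeostatic receptors, the purinergic receptor gene *P2ry13* was at 3.49 ± 1.30 CPM (mean ± SD, n = 4) in the *Atm*-WT and 2.82 ± 0.380 CPM in the *Atm*-KO mice, and the lysophosphatidylserine receptor gene *Gpr34* at 4.33 ± 0.849 and 3.81 ± 0.685 CPM. Both overlapped between genotypes, with log2 fold changes of -0.31 and -0.18. *Fcrls*, an Fc receptor-like gene listed in the current annotation as *Fcrl2*, was the member with the highest fold change, at 2.51, 4.39, 2.41 and 3.90 CPM in the *Atm*-WT and 4.49, 4.51, 4.41 and 3.27 CPM in the *Atm*-KO libraries. Its *Atm*-WT values fell into a lower pair (2M and 13M) and a higher pair (7M and 32M), and the *Atm*-KO library 12M lay inside that range (log2 fold change 0.34 ± 0.22 s.e., adjusted p = 0.408).

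The 3 transcription factors had a median log2 fold change of -0.15, and none had an unadjusted p under 0.05. *Sall1*, a zinc finger factor that maintains microglial identity, was at 9.78 ± 1.69 CPM in the *Atm*-WT and 8.86 ± 2.20 CPM in the *Atm*-KO mice. *Irf8*, an interferon regulatory factor needed for microglial development, was at 2.02 ± 0.414 and 1.82 ± 0.412 CPM, so that both differed by less than their spread between mice (log2 fold changes -0.14 and -0.15). *Spi1*, the gene of PU.1, had few reads, with 0.660, 0.591, 0.478 and 0.886 CPM in the *Atm*-WT and 0.367, 0.465, 0.284 and 0.563 CPM in the *Atm*-KO cerebellum. Only the *Atm*-KO library 12M reached into the *Atm*-WT range (log2 fold change -0.64 ± 0.32 s.e., adjusted p = 0.280).

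**Figure D2:**
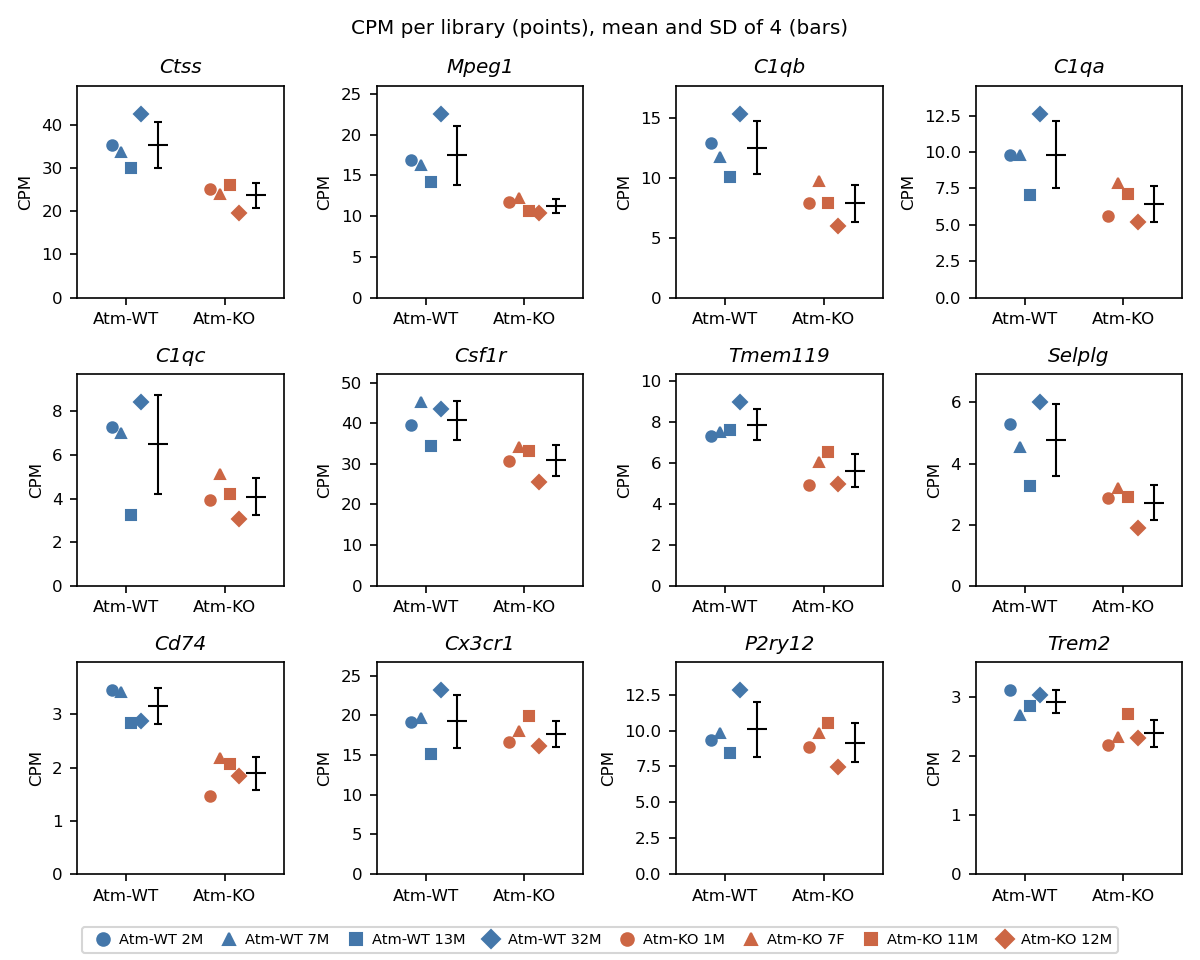
CPM of 12 members on the y axis of each panel, starting at 0, with a point for each library and a bar for the mean and SD of the 4 libraries of a genotype. *Ctss*, *Mpeg1*, *C1qb*, *Csf1r*, *Tmem119*, *Selplg* and *Cd74* do not overlap between genotypes, while *C1qa*, *C1qc*, *Cx3cr1*, *P2ry12* and *Trem2* do.

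Among the 10 immune receptors and adaptors, 9 were lower, 5 with an unadjusted p under 0.05, and 4 did not overlap, all lower (63.8%, 11.7% and 6.98% of protein-coding genes). The median log2 fold change was -0.41. *Trem2*, the receptor for lipids and lipoproteins, was at 3.11, 2.69, 2.84 and 3.03 CPM in the *Atm*-WT and 2.18, 2.32, 2.71 and 2.31 CPM in the *Atm*-KO mice. The genotypes met at 7M and 11M, which had the lowest *Atm*-WT and the highest *Atm*-KO value (log2 fold change -0.29 ± 0.16 s.e., adjusted p = 0.317). *Tyrobp*, the signalling adaptor of TREM2 also called DAP12, was at 2.47, 2.53, 1.63 and 3.08 CPM and 1.25, 1.78, 1.74 and 1.87 CPM, and only 13M among the *Atm*-WT libraries reached the *Atm*-KO range (log2 fold change -0.55 ± 0.23 s.e., adjusted p = 0.211).

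The Fc receptor genes did not overlap between genotypes. *Fcer1g*, the common gamma chain through which Fc receptors signal, was at 1.35, 1.03, 0.932 and 1.22 CPM in libraries of *Atm*-WT mice and 0.735, 0.800, 0.709 and 0.651 CPM in those of *Atm*-KO mice (log2 fold change -0.65 ± 0.22 s.e., adjusted p = 0.155). *Fcgr3*, a receptor for IgG that uses this chain, was at 3.96, 3.61, 4.52 and 4.39 CPM and 2.44, 3.40, 3.22 and 2.24 CPM (log2 fold change -0.55 ± 0.18 s.e., adjusted p = 0.143). In both genes the *Atm*-KO library 12M was the lowest of all 8.

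*Cd14*, the co-receptor of Toll-like receptor 4 for lipopolysaccharide, had the lowest fold change of the list, with 1.03, 1.26, 0.956 and 0.886 CPM in the *Atm*-WT and 0.465, 0.516, 0.722 and 0.563 CPM in the *Atm*-KO mice (log2 fold change -0.86 ± 0.25 s.e., adjusted p = 0.116). No value of one genotype lay within the range of the other, at 38 to 94 counts per library. *Ly86*, which encodes the MD-1 protein that pairs with the Toll-like receptor homologue RP105, was at 2.61, 1.76, 2.38 and 2.68 CPM and 1.73, 1.55, 1.70 and 1.69 CPM. The *Atm*-WT library 7M was nearly level with the *Atm*-KO library 1M (log2 fold change -0.50 ± 0.19 s.e., adjusted p = 0.178).

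The other members of this group overlapped between genotypes. *Inpp5d*, the gene of the inositol phosphatase SHIP1 that limits receptor signalling, was at 6.05 ± 0.854 CPM in the *Atm*-WT and 4.83 ± 1.18 CPM in the *Atm*-KO mice (log2 fold change -0.33 ± 0.19 s.e., adjusted p = 0.361). The integrin gene *Itgam* (CD11b) was at 1.36 ± 0.172 and 1.19 ± 0.252 CPM (log2 fold change -0.20), and shares 3450 bases of exon with *Gm49368* on its own strand, so its counts are uncertain. *Aif1*, which encodes the common microglial stain IBA1, was at 0.660, 0.672, 0.396 and 0.653 CPM in the *Atm*-WT and 0.563, 0.645, 0.542 and 0.148 CPM in the *Atm*-KO libraries. The value of 12M rests on 10 counts, and the difference between genotypes was smaller than its standard error (log2 fold change -0.32 ± 0.40 s.e., adjusted p = 0.696). *Ptprc* (CD45), the phosphatase carried by all leukocytes, was one of the 3 higher members, at 2.74 ± 0.215 and 3.20 ± 0.973 CPM, with the highest value in 7F and the lowest in 12M, both *Atm*-KO libraries (log2 fold change 0.23 ± 0.21 s.e., adjusted p = 0.576).

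The 3 chains of C1q, the recognition protein that starts the classical complement cascade and tags synapses and debris, were lower as a group. By edgeR, each had an unadjusted p under 0.05 and none an adjusted p under 0.05. The adjusted p by DESeq2 was 0.0217 for *C1qa*, 0.00346 for *C1qb* and 0.0686 for *C1qc*. The genes of the 3 chains lie side by side on GRCm39 chr4:136606009-136626161, a stretch of 20.2 kb, on the same strand. *C1qb* was at 12.9, 11.7, 10.1 and 15.4 CPM in the *Atm*-WT and 7.89, 9.77, 7.94 and 5.97 CPM in the *Atm*-KO cerebellum, without overlap (log2 fold change -0.67 ± 0.17 s.e., adjusted p = 0.0991). *C1qa* was at 9.76, 9.81, 7.03 and 12.6 CPM and 5.60, 7.87, 7.09 and 5.18 CPM, and *C1qc* at 7.27, 6.998, 3.24 and 8.44 CPM and 3.94, 5.15, 4.19 and 3.08 CPM. In both genes the *Atm*-WT library 13M lay among the *Atm*-KO values, and the other 3 *Atm*-WT libraries lay above all of them.

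The fold changes of the neighbouring chains were alike, at -0.61 ± 0.19 for *C1qa* (adjusted p = 0.129) and -0.66 ± 0.26 for *C1qc* (adjusted p = 0.193). The log2 ratio of *C1qa* to *C1qb* was -0.37 ± 0.12 (SD) in the *Atm*-WT and -0.29 ± 0.15 in the *Atm*-KO mice (p = 0.457 by an exact permutation test, two-sided). The log2 ratio of *C1qc* to *C1qb* was -1.02 ± 0.42 and -0.95 ± 0.04 (exact permutation p = 1.0), and library 13M, where *C1qc* was low, widened its spread in *Atm*-WT. Without 32M and 12M together the log2 fold changes were -0.37 for *C1qa*, -0.44 for *C1qb* and -0.40 for *C1qc*, and with a surrogate variable they were -0.29, -0.37 and -0.30. The protein holds its chains in equal numbers.

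All 5 lysosomal and phagosomal members were lower, with a median log2 fold change of -0.47, and this group held the members with the smallest p-values. *Ctss*, the gene of the lysosomal protease cathepsin S that cleaves the invariant chain during antigen presentation, was at 35.2, 33.7, 29.9 and 42.5 CPM in the *Atm*-WT and 25.0, 24.0, 26.2 and 19.5 CPM in the *Atm*-KO mice. The lowest *Atm*-WT library, 13M, was above the highest *Atm*-KO library, 11M, and 12M was the lowest (log2 fold change -0.58 ± 0.12 s.e., adjusted p = 0.0931). *Mpeg1*, which encodes the pore-forming protein perforin-2, was at 16.9, 16.2, 14.1 and 22.6 CPM and 11.7, 12.2, 10.7 and 10.4 CPM. The 4 *Atm*-KO libraries lay close together and below all *Atm*-WT libraries, of which 32M was far the highest (log2 fold change -0.64 ± 0.14 s.e., adjusted p = 0.0931).

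The remaining members of the group overlapped between genotypes. *Laptm5*, a lysosomal membrane protein gene of blood-derived cells, was at 11.9 ± 1.57 CPM in the *Atm*-WT and 8.60 ± 1.495 CPM in the *Atm*-KO mice (log2 fold change -0.47 ± 0.15 s.e., adjusted p = 0.130). *Cd68*, the lysosomal glycoprotein used as a stain for phagocytic activity, was at 1.64 ± 0.565 and 1.18 ± 0.338 CPM (log2 fold change -0.47 ± 0.30 s.e., adjusted p = 0.389). *Cybb*, the catalytic subunit of the phagocyte NADPH oxidase, was at 1.52 ± 0.497 and 1.22 ± 0.320 CPM (log2 fold change -0.31 ± 0.28 s.e., adjusted p = 0.551).

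None of the activation-linked members was higher by more than its standard error. Of the 7, 6 were tested, 5 of these were lower, and 2 (*Cd74* and *Axl*) had an unadjusted p under 0.05 and no overlap, both lower, at a median log2 fold change of -0.11 for the group (63.8%, 11.7% and 6.98% of protein-coding genes). *Cd74*, the invariant chain of MHC class II, was at 3.46, 3.43, 2.83 and 2.88 CPM in the *Atm*-WT and 1.47, 2.18, 2.08 and 1.84 CPM in the *Atm*-KO mice (log2 fold change -0.74 ± 0.18 s.e., adjusted p = 0.0992). The gap between the genotypes, from 2.18 CPM in 7F to 2.83 CPM in 13M, was about as wide as the spread among *Atm*-WT libraries. *Axl*, a receptor tyrosine kinase for the phosphatidylserine-bridging protein GAS6 that other glia and vascular cells also express, was at 55.4, 58.8, 58.3 and 66.1 CPM and 51.7, 53.3, 54.4 and 49.1 CPM. The genotypes were separated by about 1 CPM, at a small fold change with a small standard error (log2 fold change -0.20 ± 0.07 s.e., adjusted p = 0.164).

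*Spp1*, the gene of osteopontin, which neurons of the hindbrain also express, was at 28.4, 27.0, 25.1 and 25.5 CPM in the *Atm*-WT and 17.3, 25.5, 24.3 and 8.48 CPM in the *Atm*-KO libraries. The *Atm*-KO libraries 7F and 11M were within or near the narrow *Atm*-WT range, and 1M and 12M were far below it (log2 fold change -0.48 ± 0.26 s.e., adjusted p = 0.31). Without 12M the log2 fold change of *Spp1* was -0.24, and with a surrogate variable as covariate it was -0.09. *Spp1* shares 362 bases of exon with *Gm42793* on its own strand. *Lpl*, lipoprotein lipase, which other brain cells express too, was at 2.01, 1.68, 1.64 and 2.13 CPM and 1.49, 2.58, 2.21 and 1.10 CPM (log2 fold change -0.02 ± 0.26 s.e., adjusted p = 0.981). The *Atm*-KO libraries held both the highest and the lowest value of all 8.

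The members most particular to activated microglia had few counts. *Clec7a*, the beta-glucan receptor dectin-1, was at 0.752, 0.537, 0.350 and 0.513 CPM in the *Atm*-WT and 0.686, 0.645, 0.361 and 0.414 CPM in the *Atm*-KO cerebellum (log2 fold change -0.03 ± 0.33 s.e., adjusted p = 0.975). *Itgax* (CD11c) was at 0.0792, 0.349, 0.280 and 0.233 CPM and 0.196, 0.258, 0.387 and 0.207 CPM (log2 fold change 0.15 ± 0.46 s.e., adjusted p = 0.883). *Cst7*, the protease inhibitor cystatin F, was listed at 0.0396, 0.0269, 0.105 and 0.0700 CPM and 0.122, 0.0516, 0.0387 and 0.0296 CPM, or 2 to 10 counts per library, and was not tested. The standard errors of *Clec7a* and *Itgax* exceeded their fold changes, and their libraries overlapped between genotypes.

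Levels of different members can be compared only per length of transcript, here as CPM per kilobase of the summed exons of a gene. On that scale *Spp1* was the highest of the 37 members in both genotypes, at 9.31 in the *Atm*-WT and 6.65 in the *Atm*-KO mice. *Ctss* followed in *Atm*-WT at 6.67, with *Axl* at 6.499, *C1qa* at 6.09 and *Csf1r* at 5.53, and in *Atm*-KO *Axl* (5.68) came before *Ctss* (4.46). The lowest were *Aif1*, *Itgax* and *Cst7*, at 0.141, 0.0485 and 0.0435 in *Atm*-WT. *Fcrls* moved up from rank 23 to 16 and *Spi1* down from 30 to 34, and the *Atm*-WT and *Atm*-KO libraries overlapped in both genes.

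**Figure D3:**
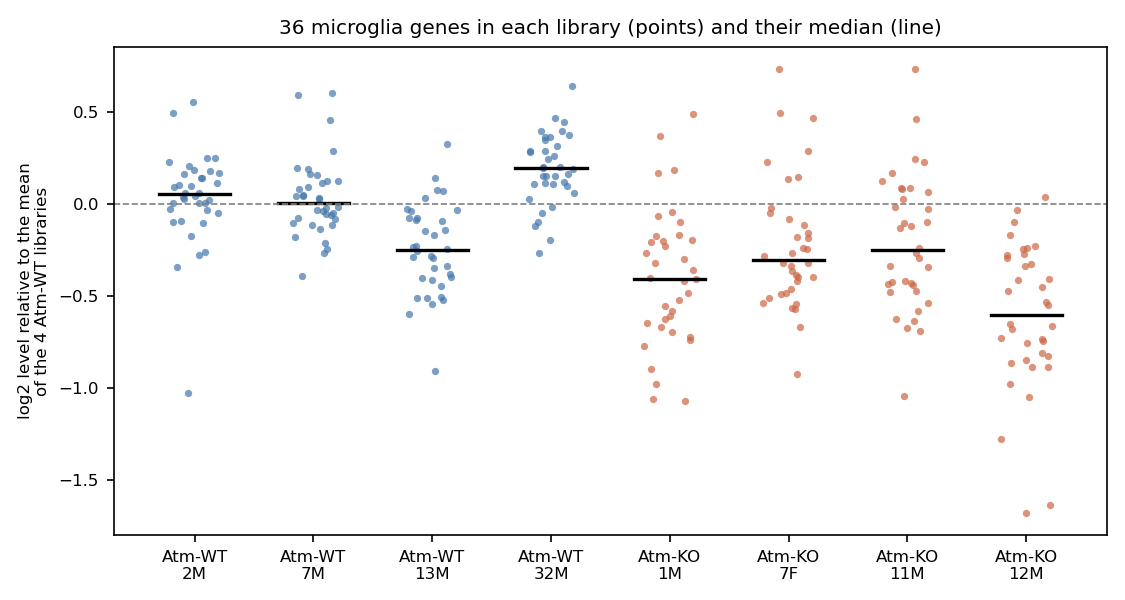
Level of the 36 members tested in each library on the y axis, as the log2 difference of CPM (plus 0.05) from the mean of the 4 *Atm*-WT libraries, with a point for each member and a line at their median. The medians given next are of log2 CPM with a prior count of 2, in place of the 0.05 CPM added for the drawing. They were 0.05, 0.0043, -0.25 and 0.19 in *Atm*-WT libraries 2M, 7M, 13M and 32M and -0.41, -0.30, -0.25 and -0.60 in *Atm*-KO libraries 1M, 7F, 11M and 12M.

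Summed over all 37 members, the level was 322, 327, 279.6 and 369 CPM in the *Atm*-WT and 245, 275, 276 and 207 CPM in the *Atm*-KO libraries. The *Atm*-WT library 13M, the lowest *Atm*-WT library for 24 of the 36 members, was thus close to the *Atm*-KO libraries 7F and 11M. The difference in means, 324 ± 36.4 against 251 ± 32.6 CPM (SD, n = 4), is a description over a chosen list. Without 13M, 19 members did not overlap between genotypes, all lower, and with these 7 libraries 8.34% of all genes tested and 11.1% of protein-coding genes were lower without overlap. The coefficient of variation of a member among the libraries of a genotype had a median of 17.5% in the *Atm*-WT and 19.6% in the *Atm*-KO mice.

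Members with a short gene differed more than members with a long one. The 18 members that span 15.9 kb or less were all lower, with a median log2 fold change of -0.55, while 15 of the 18 longer members were lower, with a median of -0.19. All 3 higher members (*Itgax*, *Fcrls* and *Ptprc*) are among the 18 longer ones. Across all protein-coding genes tested, 64.7% of those at or below the same span and 63.4% of those above it were lower, with medians of -0.08 and -0.05. The split by length was made after the data were seen, and its part in the difference between members was not tested.

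Ligands and survival signals that act on microglia were measured beside the receptors, and none passed an adjusted p of 0.05. All 8 had a negative log2 fold change (-0.40 to -0.04, median -0.24), against 63.8% of protein-coding genes. At an unadjusted p under 0.05 there were 3 (11.7% of protein-coding genes were lower at that p), and 2 did not overlap (5.12% of all genes tested and 6.98% of protein-coding genes). *Csf1*, a ligand of CSF1R, was at 27.1, 24.1, 22.7 and 25.9 CPM in the *Atm*-WT and 19.1, 21.4, 20.7 and 22.5 CPM in the *Atm*-KO mice, without overlap (log2 fold change -0.25 ± 0.08 s.e., adjusted p = 0.148). *Tgfb1*, the cytokine that keeps microglia in the homeostatic state, was at 3.93, 4.11, 3.90 and 4.76 CPM and 3.25, 3.42, 3.17 and 2.84 CPM, also without overlap (log2 fold change -0.40 ± 0.15 s.e., adjusted p = 0.172). *Il34*, the other ligand of CSF1R, was at 5.996 ± 0.862 and 4.60 ± 1.23 CPM (log2 fold change -0.38 ± 0.21 s.e., adjusted p = 0.318), and *Cx3cl1*, which encodes the ligand of CX3CR1, at 58.9 ± 11.1 and 44.8 ± 12.8 CPM (log2 fold change -0.39 ± 0.20 s.e., adjusted p = 0.287), with overlap in both.

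Among 40 other genes of microglia that are not members, 36 were lower, 13 had an unadjusted p under 0.05, all lower, and 9 did not overlap, at a median log2 fold change of -0.28. Over all protein-coding genes 63.8% were lower, 11.7% lower at that p and 6.98% lower without overlap. The smallest p-values without overlap belonged to *Il10ra*, the receptor for interleukin 10 (3.65 ± 0.406 CPM in the *Atm*-WT and 1.98 ± 0.283 CPM in the *Atm*-KO mice, log2 fold change -0.88 ± 0.17 s.e., adjusted p = 0.0931), and to the lysosomal protease gene *Ctsd* (log2 fold change -0.35 ± 0.07 s.e., adjusted p = 0.0931). They were followed by the fructose transporter gene *Slc2a5* (log2 fold change -0.83 ± 0.25 s.e., adjusted p = 0.124). Another 18 activation-linked genes held 17 lower genes, 9 of them with an unadjusted p under 0.05, at a median of -0.36, against the same shares over protein-coding genes (63.8%, and 11.7% at that p). Those without overlap, 4 of the 18 against 6.98% of protein-coding genes, were *Ctsl* (-0.33), *Ctsz* (-0.48) and *Ctsb* (-0.19), all lysosomal cathepsins, and the tetraspanin gene *Cd9* (-0.35).

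Inflammatory cytokines and enzymes lay on both sides of 0. Of 14 genes, 7 were tested, 4 of them lower and 3 higher, with log2 fold changes from -1.16 to 0.32 around a median of -0.07. The lower genes were 57.1% of those tested, near the 63.8% of protein-coding genes that were lower. At an unadjusted p under 0.05, 11.7% of protein-coding genes were lower. The chemokine gene *Cxcl10*, at 0.615 ± 0.361 CPM in the *Atm*-WT and 0.274 ± 0.128 CPM in the *Atm*-KO mice, was the 1 gene with an unadjusted p under 0.05 (log2 fold change -1.16 ± 0.52 s.e., adjusted p = 0.237), and its libraries overlapped. The 7 untested genes, *Tnf*, *Il1b*, *Il6*, *Ccl2*, *Ccl3*, *Ccl4* and *Ccl5*, had at most 14 counts in a library, and *Ccl4* had 0 counts in all 8, which allows up to 3 counts or 0.0455 CPM in the shallowest library. These genes and *Cxcl10* were named after their values were seen.

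**Figure D4:**
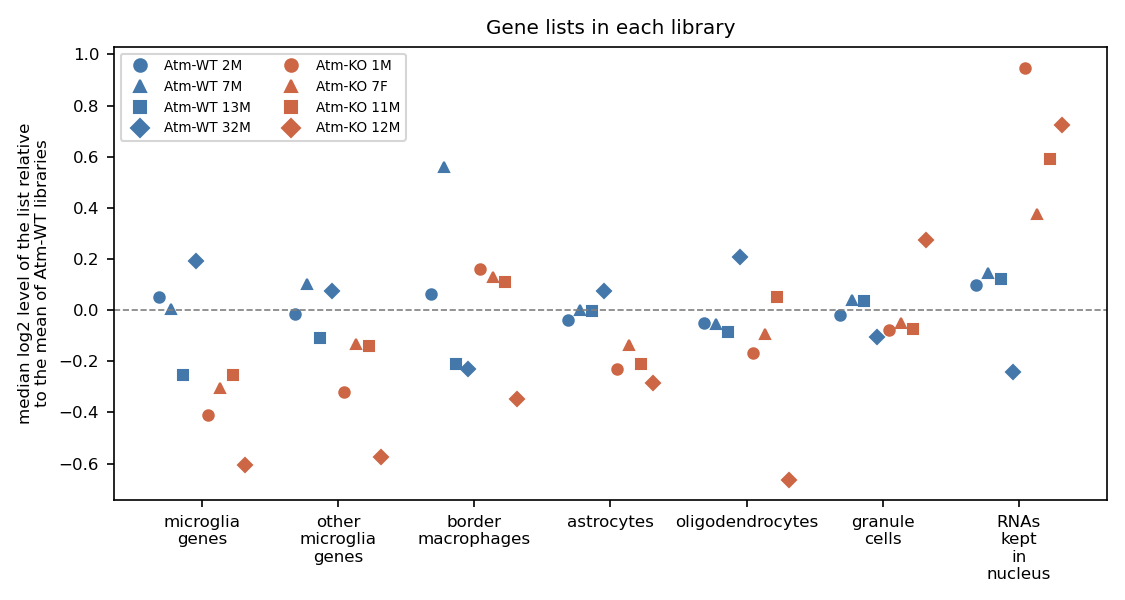
Median log2 level of 7 gene lists in each library on the y axis, relative to the mean of the 4 *Atm*-WT libraries, with *Atm*-WT libraries in blue and *Atm*-KO libraries in orange. The microglia lists are lowest in the *Atm*-KO library 12M, and the RNAs kept in the nucleus are higher in all 4 *Atm*-KO libraries (0.38 to 0.95) than in the *Atm*-WT libraries (-0.24 to 0.15).

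Other cells share some of these genes, and their markers were measured beside the members. For macrophages at the borders of the brain, 6 of 10 markers were lower and 4 higher, none with an unadjusted p under 0.05 or without overlap. The lower ones were 60.0%, near the 63.8% of protein-coding genes, of which 11.7% were lower at that p and 6.98% lower without overlap. These markers had a median log2 fold change of -0.11. Their summed level was 19.9 to 37.7 CPM in the *Atm*-WT and 21.8 to 28.0 CPM in the *Atm*-KO libraries. Of 13 markers of blood leukocytes only 3 passed the filter, and their summed level was 0.979 to 2.28 CPM and 1.04 to 2.98 CPM. The 5 red blood cell genes were higher in *Atm*-KO at adjusted p-values of 0.391 or more, where 36.2% of protein-coding genes were higher by sign. These 5 genes summed to 5.87 to 42.9 CPM in the *Atm*-WT and 7.80 to 49.5 CPM in the *Atm*-KO libraries. For the next lists the shares over protein-coding genes were 63.8% lower by sign and 11.7% lower at an unadjusted p under 0.05. Of the markers of other glia, the lower ones were 8 of 8 for astrocytes (median -0.20, 5 with an unadjusted p under 0.05) and 8 of 8 for oligodendrocytes (median -0.18, 3 with an unadjusted p under 0.05). For endothelial cells 5 of 8 markers were lower, which is 62.5% (median -0.20, 3 with an unadjusted p under 0.05), for Purkinje cells 7 of 8 (median -0.13, 2 with an unadjusted p under 0.05) and for granule cells 3 of 8 (median 0.05, 0 with an unadjusted p under 0.05). The smallest adjusted p of these lists was 0.0931 for astrocytes, 0.125 for oligodendrocytes, 0.0948 for endothelial cells, 0.0942 for Purkinje cells and 0.538 for granule cells. Their part in the lower level of the members was not tested.

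RNAs that stay in the nucleus, read as a sign of RNA composition, differed in the opposite direction from the members. The list was chosen with earlier results of these data known, so its direction is a description and not a test. Of 11 found, 10 were higher in *Atm*-KO, 8 with an unadjusted p under 0.05 and no overlap, at a median log2 fold change of 0.70. Of all genes tested, 46.9% were higher by sign, 11.7% higher at that p and 6.47% higher without overlap. The list holds non-coding RNAs, while the shares among protein-coding genes were 36.2%, 7.0% and 4.4%. Genes that are not protein-coding were thus higher more often than the shares over all genes, and their own shares are not given. *Neat1*, the scaffold of nuclear paraspeckles, was higher (52.4 ± 5.45 CPM in the *Atm*-WT and 85.1 ± 8.04 CPM in the *Atm*-KO mice, log2 fold change 0.70 ± 0.09 s.e., adjusted p = 0.0371). The summed level of the list was 10555, 10846, 11637 and 6550 CPM in the *Atm*-WT and 17761, 12219, 12775 and 17540 CPM in the *Atm*-KO libraries. The *Atm*-WT library with the least of these RNAs, 32M, had the most microglial RNA, and the *Atm*-KO libraries with the most, 1M and 12M, had the least. The *Atm*-WT library with the most of these RNAs, 13M, had the lowest summed level of the members among the *Atm*-WT libraries. Further, 1 surrogate variable, a number set in advance, was estimated by sva from the libraries and was most extreme in 32M and 12M. It was 0.137, 0.0715, 0.0363 and 0.566 in the *Atm*-WT and -0.235, 0.0983, 0.0891 and -0.763 in the *Atm*-KO libraries. All *Atm*-WT values were positive, so the variable is partly shared with genotype, and the fit cannot fully tell them apart. With this variable as covariate, 25 members were lower and 11 higher, and the median was -0.25. At an unadjusted p under 0.05, 8 members were lower and 1 higher. With that covariate 57.3% of protein-coding genes were lower by sign, and 5.88% were lower and 4.55% higher at that p (4.35% and 5.76% of all genes tested). In that fit the log2 fold change was -0.31 for *Tmem119*, -0.46 for *Selplg*, -0.24 for *Csf1r*, -0.34 for *Fcgr3*, -0.36 for *Ctss* and -0.11 for *Axl*, all nearer to 0 than without the covariate by over 1.5 times. It moved less for *Cd14* (-0.87, slightly farther from 0), *Cd74* (-0.68), *Fcer1g* (-0.52), *Ly86* (-0.45), *Mpeg1* (-0.45), *Tyrobp* (-0.44), *Siglech* (-0.31) and *Trem2* (-0.23). The part of RNA composition in the result was not tested.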

How the data were processed

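RNA of frozen cerebellum from 8 mice was sequenced by Novogene. The submitters' processing notes name FastQC 0.11.9, STAR, featureCounts, DESeq2 and GRCm39, and the authors deposited raw counts per gene without normalization. The strand and pair settings of the counting are not given in the sources used here, and between 67.3% and 73.3% of low counts were even, so a count may be a read or a fragment. Gene identifiers were matched without version to GENCODE vM39 (98.8% matched), and *Fcrls* was found under its newer symbol.

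Libraries were grouped by the genotype in their titles and compared with edgeR 4.0.16 in R 4.3.3 (filterByExpr, TMM, glmQLFit and glmQLFTest, Benjamini-Hochberg adjustment over 22423 genes). The p-values measure the spread between mice. Single values were compared by two-sided exact permutation tests. Alternatives were DESeq2 1.42.0, limma 3.58.1 voom, other scalings and filters, protein-coding genes alone, halved counts, a surrogate variable of sva 3.50.0 and each library left out. Every member tested had at least 6 counts in each library, and library totals ranged from 65967130 to 88030300. The members, gene lists and tests were chosen with earlier results of these data known. Values per library are printed for members without overlap, with the 5 smallest p-values, for defining markers, C1q, *Trem2*, *Tyrobp* and the activation-linked list, and for a few others chosen after their values were seen. Genes of other lists are named, up to 4 a list, where genotypes do not overlap at an unadjusted p under 0.05. The ligands *Csf1*, *Il34*, *Cx3cl1* and *Tgfb1* are named in any case, and *Cxcl10* and untested cytokines were named after their values were seen. *Gm26917* of the nuclear list was not found. The values of 1 gene outside the members are not reported here, and it stays in the counts of its list.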

Additional observations from a re-analysis of the deposited data

Results flagged for a closer look

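In 3 of 78 groups of 4 libraries examined, a library lay farther from the others than Dixon's 95% criterion allows, where chance alone gives about 3.9. *Fcrls* was at 3.27 CPM in the *Atm*-KO library 12M and at 4.41 to 4.51 CPM in the other *Atm*-KO libraries. *Aif1* was at 0.396 CPM in the *Atm*-WT library 13M and at 0.653 to 0.672 CPM in the other *Atm*-WT libraries. The *Atm*-KO library 12M held 65967130 counts in all, and the other *Atm*-KO libraries held 76598492 to 78431478.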

How the results depend on the processing

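The median log2 fold change of the members stayed negative under all 18 alternatives (-0.46 to -0.25, and -0.46 to -0.32 with 1 library left out), and 13 to 19 members did not overlap with 1 library left out (8.24% to 12.9% of protein-coding genes were then lower without overlap), compared with 10 to 19 over all alternatives that rescale or leave out libraries (3.5% to 12.9%). Of these members, 1 was higher without 12M, alone or with 32M, and the others were lower. Members called at an adjusted p of 0.05 numbered 0, except 11 with DESeq2 and 4 without a filter on low counts (*Csf1r*, *C1qb*, *Ctss* and *Mpeg1*). Members with an unadjusted p under 0.05 numbered 9 with the surrogate variable, 12 without 32M and 12M, and 14 to 18 with 1 library left out, where 7.78% to 11.9% of protein-coding genes were lower at that p. Genes called over the whole table numbered 1552 with DESeq2, 591 without the filter, 2 among protein-coding genes, 24 without 32M and 12M, and 1 to 27 with 1 library left out (27 without 13M, 10 without 32M, 2 without 7M, 1 without 2M, 1M or 11M). Signs turned under some alternative in 9 of the 36 members, none with an adjusted p under 0.05. With the surrogate variable the log2 fold change was 0.051 for *Cx3cr1*, 0.13 for *P2ry12*, 0.069 for *Clec7a* and 0.38 for *Lpl*, and without 32M and 12M it was 0.016, 0.082, 0.051 and 0.24. Under these settings *Gpr34* came to 0.083 and 0.055, *Sall1* to 0.17 and 0.067 and *Aif1* to 0.21 and 0.022, *Itgam* turned to 0.028 with the surrogate variable alone, and *Sall1* also turned without 12M. *Clec7a* and *Lpl* came to 0.023 and 0.024 with library size alone, 0.00075 and 0.0097 with at least 10 counts in every library, 0.018 and 0.024 among protein-coding genes, and 0.014 and 0.016 with halved counts. With 1 library left out, *Clec7a* ranged from -0.18 to 0.18, *Lpl* from -0.20 to 0.17 and *Itgax* from -0.13 to 0.39, with the sign turned without 2M, 11M or 12M for *Clec7a*, without 2M, 32M, 1M or 12M for *Lpl* and without 2M or 11M for *Itgax*. The causes were not tested. Depth limits the scarcest members, such as *Cst7* with 2 to 10 counts per library. No paired analysis was made. The controls were wild-type littermates, but the litter of each mouse is not given in the sources used here.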
